A study of Mus musculus with 4 samples.

Results

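The 10 genes described here are the CC chemokines Ccl2, Ccl3, Ccl4, Ccl5, Ccl6, Ccl7, Ccl8, Ccl9, Ccl11 and Ccl12 of mouse chromosome 11. They were taken as a named list from the 24097 gene symbols to which the RefSeq entries of the study were assigned, and each of the 10 had a single entry in every library. RNA was sequenced from cultures of macrophages grown from C57BL/6 bone marrow for 6 days in GM-CSF at 10 ng/ml and taken as adherent cells. There were 4 groups with 1 library each: Batf2-/- cells (KO) at 3 h of lipopolysaccharide (LPS), wild-type cells (WT, Batf2+/+) at 3 h, KO cells at 0 h and WT cells at 0 h. Per the labels, interferon-gamma was given to all 4 cultures at 10 ng/ml for 4 h before LPS at 100 ng/ml. Whether the cultures at 0 h had received it was not tested. The part of Batf2 that was deleted and the number of mice behind a culture are not stated in the labels. The study asked how loss of Batf2, a basic leucine zipper transcription factor, bears on macrophage gene expression.

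CC chemokines are small secreted proteins with adjacent cysteines that attract leukocytes through G protein-coupled receptors. Ccl3, Ccl4 and Ccl5 attract monocytes, macrophages and T cells, while Ccl2, Ccl7 and Ccl12 act through CCR2 and draw monocytes out of the bone marrow and into inflamed tissue. Ccl6 and Ccl9 are rodent chemokines that can signal through CCR1. Ccl8 of the mouse is a ligand of CCR8, and Ccl11, or eotaxin, attracts eosinophils through CCR3. In macrophages the inflammatory members are known targets of Toll-like receptor and interferon signalling.

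Levels are given as FPKM, which divides the reads of a gene by its transcript length and by the reads of its library, so that levels of different genes can be compared. With 1 library per group there was no replicate, no test was run, and differences were described with a size rule. A gene was tested if either library compared had an FPKM of 1 or more. It passed if the difference of log2(FPKM + 1) was 1 or more in size (2-fold) and the deposited 95% intervals did not overlap. Those intervals cover counting and read assignment in 1 library and not the spread between cultures. Judged by interval widths, depth relative to the WT library at 3 h was 1.44 for KO at 3 h, 1.30 for KO at 0 h and 1.15 for WT at 0 h. Batf2 had an FPKM of 10.1 in KO and 234.3 in WT cells at 3 h, and of 0.26 in KO and 2.63 in WT cells at 0 h. Cxcl9, a textbook target of interferon-gamma, had an FPKM of only 0.12 in KO and 0.62 in WT cells at 0 h, against 1058 in KO and 1249 in WT cells at 3 h. Cxcl10 had 1.20 in KO and 1.11 in WT cells at 0 h, against 1801 in KO and 1945 in WT cells at 3 h. Differences between 3 h and 0 h can therefore not be assigned to LPS alone. The cells carried the macrophage markers looked for, all 8 of them at 1 FPKM or more in all 4 libraries, while B cell markers summed to under 1 FPKM in each. All 7 neutrophil markers measured also reached 1 FPKM in all 4 libraries, with sums of 3483 to 8622 FPKM. Of 8 dendritic markers 5 did so in each library, with sums of 493 to 584 FPKM. Itgax alone gave 457 to 564 FPKM of these sums. The marker lists thus do not show macrophages alone. In bulk RNA, fewer cells of a type and less RNA per cell cannot be told apart.

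The genes form 2 runs on chromosome 11. Ccl2, Ccl7, Ccl11, Ccl12 and Ccl8 lie within 81.2 kb on the forward strand, from 82035577 to 82116799, and each has 3 exons. The other run, of Ccl5, Ccl9, Ccl6, Ccl3 and Ccl4, starts 1409 kb further on and spans 138.9 kb, from 83525779 to 83664683. Its genes lie on the reverse strand except Ccl4, and Ccl9 and Ccl6 have 4 exons. Positions are those of GRCm38/mm10, since the loci in the files carry the GRCm38 start for 8 of the 10 members and the GRCm38 end for 9, although the submitters' processing notes name mm9. No pair of members shares a stretch of 36 bases in its GENCODE transcript, and 1 of 45 pairs (Ccl9 and Ccl6) shares 1 of 25 bases.

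RefSeq promoter windows (GRCm38.p6, 250 bases before to 50 after the start) were at hand for Ccl12, Ccl8, Ccl9, Ccl6 and Ccl3. They are shown for the genes with differences at 3 h against 0 h described below. On the scale of the deposited FPKM these were large for Ccl12 and Ccl3, small for Ccl9 and negative for Ccl6. Capitals mark matches to TATAAA, to the kappaB consensus, to the AP-1 motif TGANTCA, to the interferon response motif of GAAA and GAAA with 2 bases between, to the STAT motif TTCNNNGAA or to the C/EBP motif TTGCNNAAT, each searched on both strands.
Ccl12, chr11:82101595-82101894, forward strand: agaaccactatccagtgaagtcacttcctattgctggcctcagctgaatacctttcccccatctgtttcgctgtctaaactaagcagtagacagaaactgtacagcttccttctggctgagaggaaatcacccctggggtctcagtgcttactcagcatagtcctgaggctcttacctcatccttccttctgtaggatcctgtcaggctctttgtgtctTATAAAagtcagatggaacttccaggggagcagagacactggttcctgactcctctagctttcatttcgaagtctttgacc
Ccl8, chr11:82114935-82115234, forward strand: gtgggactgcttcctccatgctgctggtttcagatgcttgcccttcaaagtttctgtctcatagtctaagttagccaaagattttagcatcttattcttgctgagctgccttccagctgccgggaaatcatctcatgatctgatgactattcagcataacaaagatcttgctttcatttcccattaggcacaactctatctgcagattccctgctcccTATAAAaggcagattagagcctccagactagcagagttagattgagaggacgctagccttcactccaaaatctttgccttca
Ccl9, chr11:83578587-83578886, reverse strand: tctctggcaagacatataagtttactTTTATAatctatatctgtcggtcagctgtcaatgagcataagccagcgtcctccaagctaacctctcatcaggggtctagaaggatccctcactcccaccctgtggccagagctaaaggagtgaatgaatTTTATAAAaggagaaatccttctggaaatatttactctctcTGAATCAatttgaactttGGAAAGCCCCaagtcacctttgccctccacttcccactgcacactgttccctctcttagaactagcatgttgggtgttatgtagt
Ccl6, chr11:83593038-83593337, reverse strand: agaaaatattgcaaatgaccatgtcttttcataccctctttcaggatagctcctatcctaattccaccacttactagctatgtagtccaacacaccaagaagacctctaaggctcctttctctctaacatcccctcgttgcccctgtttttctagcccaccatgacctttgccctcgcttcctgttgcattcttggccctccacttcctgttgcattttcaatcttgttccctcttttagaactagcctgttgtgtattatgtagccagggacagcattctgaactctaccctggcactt
Ccl3, chr11:83649329-83649628, reverse strand: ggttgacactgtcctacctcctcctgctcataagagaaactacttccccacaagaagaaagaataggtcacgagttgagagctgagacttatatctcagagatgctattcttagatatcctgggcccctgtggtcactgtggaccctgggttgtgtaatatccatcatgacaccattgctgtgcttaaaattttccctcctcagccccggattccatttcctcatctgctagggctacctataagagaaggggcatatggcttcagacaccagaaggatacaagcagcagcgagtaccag
In the Ccl12 and Ccl8 windows TATAAA begins 31 and 32 bases before the start. Of all 32817 promoter windows 13.6% hold these letters. This share and those below count a match at any position on either strand, not at a given distance from the start. The Ccl9 window holds TATAAA or its complement at 3 places, of which 2 overlap, an AP-1 motif 53 bases before the start (7.81% of all windows hold one) and a kappaB match on the opposite strand 35 bases before it (8.46%). The Ccl6 and Ccl3 windows hold none of the 6 motifs, which says only that these letters are not in those windows. Among the 10 pairs of windows, Ccl12 and Ccl8 were the most alike, with 193 identical bases in a global alignment, and the longest shared run was gccctccacttcc, of 13 bases, in Ccl9 and Ccl6.

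**Figure D1:**
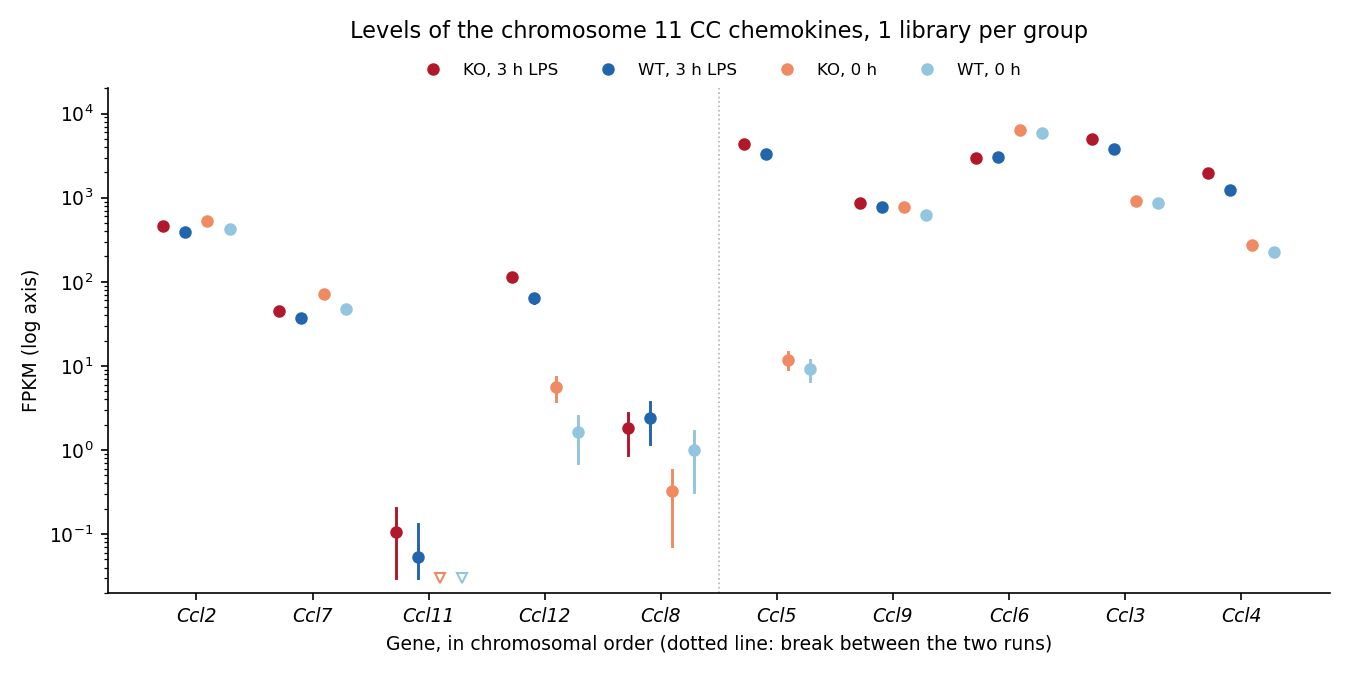
FPKM (log axis) of the 10 chemokines in the 4 libraries, with lines for the 95% intervals and open triangles for genes listed at 0. Ccl5 and Ccl12 show the widest gap between 3 h and 0 h, and Ccl6 is lower at 3 h. The 4 values of Ccl2 lie close to each other, and those of Ccl7 range from 37.2 to 72.3 FPKM (lower limits of 0 are drawn at the bottom of the axis).

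Among Ccl3, Ccl4 and Ccl5, it was Ccl5, also known as RANTES, that had the largest difference of all 10 genes. Its FPKM was 4316 in KO and 3287 in WT cells at 3 h, against 11.8 in KO and 9.25 in WT cells at 0 h. Both libraries at 3 h were thus far above both at 0 h, 365-fold in KO (interval 291 to 458) and 355-fold in WT (266 to 475). Ccl5 was the 6th most abundant gene in KO and the 11th in WT cells at 3 h, and ranked 5097th and 5901st at 0 h. Ccl3 stood at 4932 FPKM in KO and 3802 in WT cells at 3 h, against 914 in KO and 867 in WT cells at 0 h. It was the most abundant of the 10 at 3 h in both genotypes and was already the second at 0 h. Ccl4 had 1985 FPKM in KO and 1225 in WT cells at 3 h, against 273 in KO and 226 in WT cells at 0 h. Ccl3 rose 5.40-fold in KO and 4.38-fold in WT cells, and Ccl4 rose 7.27-fold in KO and 5.41-fold in WT cells. The ratio of Ccl3 to its neighbour Ccl4, which does not depend on the scale of a library, was 2.48 in KO and 3.10 in WT cells at 3 h, and 3.35 in KO and 3.84 in WT cells at 0 h.

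Of the ligands of CCR2, Ccl12 rose in both genotypes, while Ccl2 and Ccl7 passed in neither. Ccl12, which in the mouse attracts monocytes through this receptor, stood at 112.8 FPKM in KO and 63.8 in WT cells at 3 h, against 5.67 in KO and 1.62 in WT cells at 0 h. Its rise was 19.9-fold in KO (14.2 to 27.9) and 39.5-fold in WT cells (20.5 to 76.0), and the interval widths of the 0 h values amount to 39.6 reads in KO and 12.4 in WT cells. Ccl2, the main monocyte attractant of the group, was high throughout, with 466 FPKM in KO and 387 in WT cells at 3 h, against 528 in KO and 426 in WT cells at 0 h. The differences of -0.18 in KO and -0.14 in WT cells on the log2(FPKM + 1) scale did not pass the size rule, and a median-ratio rescaling of the libraries gave 0.46 and 0.40. No direction can be given for Ccl2 for this reason. Ccl7 had 45.0 FPKM in KO and 37.2 in WT cells at 3 h, against 72.3 in KO and 47.1 in WT cells at 0 h, which also did not pass. Its difference was -0.67 in KO and -0.33 in WT cells, with intervals that did not overlap in either. With rescaling these became -0.04 in KO and 0.20 in WT cells. Over the 4 libraries Ccl2 was 7.30 to 10.4 times as abundant as Ccl7. Relative to Ccl12 it was 4.13 times as abundant in KO and 6.07 times in WT cells at 3 h, and 93.2 times in KO and 264 times in WT cells at 0 h.

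Ccl6 was the leading chemokine before LPS and the one member that was lower at 3 h past the rule in a genotype. It had 2953 FPKM in KO and 3073 in WT cells at 3 h, against 6439 in KO and 5798 in WT cells at 0 h. At 0 h it was the 3rd most abundant gene of the KO and the 5th of the WT library. Ccl6 fell 2.18-fold in KO cells (interval 2.16 to 2.20), while the 1.89-fold lower value in WT cells (1.87 to 1.91) did not pass. After rescaling the KO difference was -0.48 and no longer passed, and it did not pass a 3-fold rule. Ccl9, which lies next to Ccl6, had 865 FPKM in KO and 783 in WT cells at 3 h, against 783 in KO and 624 in WT cells at 0 h. Without rescaling these values were close, with ratios of 1.11 in KO and 1.25 in WT cells. On the log2(FPKM + 1) scale the Ccl9 differences were 0.14 in KO and 0.33 in WT cells. Rescaling gave 0.79 in KO and 0.87 in WT cells, which did not pass, so the size of the Ccl9 difference depends on the scaling. The locus of E230016K23Rik, a transcript of the opposite strand, covers Ccl6. Its FPKM was 4.40 in KO and 5.18 in WT cells at 3 h, against 15.0 in KO and 18.0 in WT cells at 0 h. Whether the strand of the libraries was used in the counting is not given in the sources used here.

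Ccl8 and Ccl11 were low. Ccl8 had 1.81 FPKM in KO and 2.43 in WT cells at 3 h, against 0.33 in KO and 0.998 in WT cells at 0 h. The interval widths amount to 14.7, 15.2, 6.61 and 8.65 reads in that order, so that each value rests on few reads. In KO cells it passed the rule by a difference of 1.08, which fell below the rule with the midpoint of the interval in place of the FPKM (0.88) and with a pseudocount of 5 (0.35), and it did not pass a 3-fold rule. In WT cells the difference of 0.78 did not pass. Ccl11 was listed at 0.107 FPKM in KO (deposited interval 0 to 0.202) and 0.054 in WT cells (0 to 0.130) at 3 h, and at 0 in both at 0 h. It did not reach the FPKM minimum in any comparison, and no fold is given.

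Counted together, 9 of the 10 members were tested between 3 h and 0 h. In KO cells 5 rose past the size rule (Ccl5, Ccl12, Ccl4, Ccl3 and Ccl8), where 7.86% of all 10960 tested genes rose, and 1 fell (Ccl6), where 28% of all did. In WT cells 4 rose (the same genes except Ccl8), where 7.57% of 10841 genes rose, and none fell, where 23.2% of all did. Intervals did not overlap for 6 higher and 3 lower members in KO cells, where 15.7% and 70.8% of all genes were higher and lower in this way. In WT cells they did not overlap for 5 higher and 3 lower members, beside 16% and 65.5% of all genes. The median difference of the tested members was 1.08 in KO and 0.78 in WT cells, beside -0.64 and -0.54 over all tested genes. That general shift depends on how the libraries are scaled. Of all calls 21.9% were higher at 3 h in KO and 24.6% in WT cells, and 56.0% and 54.7% after rescaling. Ccl5, Ccl12, Ccl3 and Ccl4 passed as higher in both genotypes with and without rescaling.

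**Figure D2:**
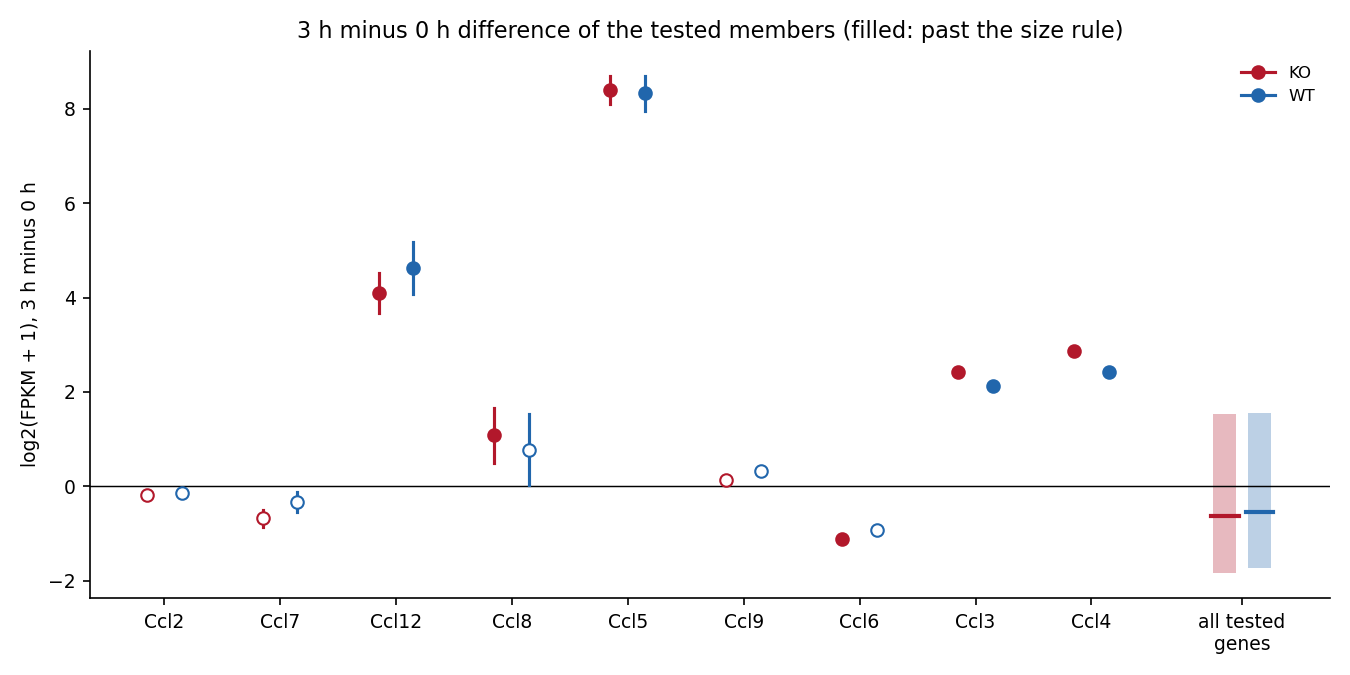
Difference of log2(FPKM + 1) between 3 h and 0 h for the 9 tested members in KO and WT cells. Filled points passed the size rule, lines are 95% intervals, and at the right the bars span the 5th to 95th percentile of all tested genes with the median as a line. Ccl5 lies above 8 in both genotypes, and Ccl2, Ccl7 and Ccl9 lie between -0.67 and 0.33. Rescaling turned Ccl2 in both genotypes and Ccl7 in WT cells above 0, and put Ccl9 at 0.79 in KO and 0.87 in WT cells.

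The summed FPKM of the 10 genes was 15678 in KO and 12660 in WT cells at 3 h, or 3.36% and 2.70% of all FPKM in the library. At 0 h it was 9027 in KO and 8001 in WT cells, or 1.89% and 1.72%. At 3 h Ccl3, Ccl5 and Ccl6 led, with 31.5%, 27.5% and 18.8% of the sum in KO cells and 30.0%, 26.0% and 24.3% in WT cells. At 0 h Ccl6 alone held 71.3% of the sum in KO and 72.5% in WT cells, while Ccl5 held 0.131% and 0.116%. The run from Ccl2 to Ccl8 gave 3.99% of the sum in KO and 3.87% in WT cells at 3 h, and 6.72% in KO and 5.95% in WT cells at 0 h. The order of the 10 genes by level was the same in both genotypes at each time. Neighbours in that order had intervals that did not overlap, except Ccl12 and Ccl8 in WT cells at 0 h.

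**Figure D3:**
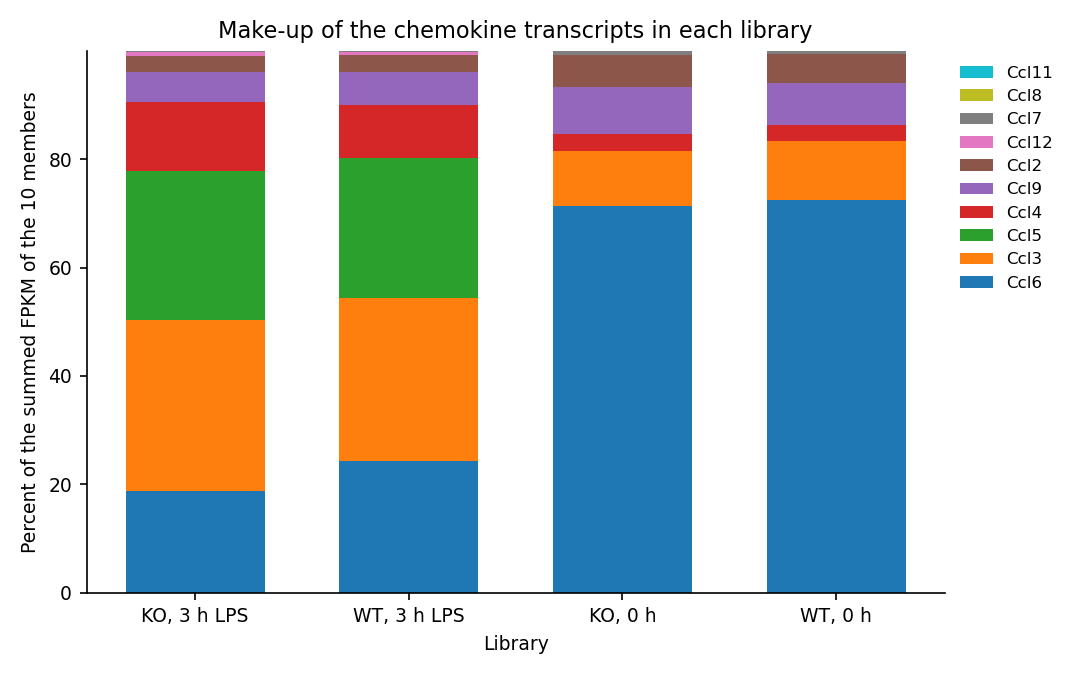
Share of each gene in the summed FPKM of the 10 chemokines, as stacked percentages, for KO and WT cells at 3 h and at 0 h. Ccl6 fills over 71% of each bar at 0 h and under 25% at 3 h, where Ccl3, Ccl5 and Ccl4 hold most of the rest.

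Between the genotypes the differences of Ccl5, Ccl12, Ccl3, Ccl4 and Ccl6 were smaller than between the times, while those of Ccl2, Ccl7 and Ccl9 passed the size rule in neither kind of comparison. At 3 h none of the 9 tested members passed the size rule, where 1.45% of all 9804 tested genes passed (0.724% higher in KO and 0.724% lower). Of these 9, 7 were higher in KO and 2 lower (Ccl6 and Ccl8), with a median difference of 0.27 beside -0.07 over all genes, of which 34.4% were higher. Intervals that did not overlap put 6 members higher in KO, where 9.27% of all genes were, and 1 lower (Ccl6), where 18.4% were. Such intervals are narrow for genes at these levels and leave out the spread between cultures. The largest differences were those of Ccl12, 1.77-fold higher in KO (interval 1.53 to 2.04), and Ccl4, 1.62-fold higher (1.57 to 1.67). They lay above 98.6% and 98.1% of all tested genes. Ccl5 was 1.31-fold higher (1.29 to 1.34), Ccl3 1.30-fold (1.28 to 1.32), Ccl7 1.21-fold (1.03 to 1.41), Ccl2 1.20-fold (1.15 to 1.26) and Ccl9 1.11-fold (1.09 to 1.12). Ccl6, with a difference of -0.06, turned to 0.03 with rescaling.

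At 0 h all 8 tested members were higher in KO, where 49.9% of all 10843 tested genes were, with a median of 0.32 beside 0.00 over all genes. Ccl8, under the FPKM minimum in both libraries, was not among them and was lower in KO (0.33 FPKM in KO and 0.998 in WT cells, a log2 difference of -0.59), so that 8 were higher and 1 lower without a minimum. Ccl12 passed the rule, as 1.33% of all genes did in that direction and 0.387% in the other, 3.51-fold higher in KO with an interval of 1.70 to 7.23. It no longer passed with a pseudocount of 5 (0.69) and with a 3-fold rule. Intervals did not overlap for 7 members, all higher in KO, where 10.7% of all genes were. Ccl7 was 1.53-fold higher (1.36 to 1.74), Ccl9 1.25-fold (1.24 to 1.27), Ccl2 1.24-fold (1.19 to 1.30) and Ccl4 1.21-fold (1.13 to 1.29). Ccl6 was 1.11-fold and Ccl3 1.05-fold higher, while the interval of Ccl5, 1.28-fold higher, reached from 0.88 to 1.84. Neutrophil markers moved with this comparison: 7 of 7 measured were higher in KO at 0 h, 4 past the rule, and their summed FPKM was 8622 in KO and 3483 in WT cells. Among them S100a8, a calcium-binding protein of neutrophils, had 4545 FPKM in KO and 1838 in WT cells at 0 h. At 3 h the sum was 4995 in KO and 5251 in WT cells. Stromal markers, of cells that can make Ccl2, Ccl7 and Ccl11, summed to 145.8 FPKM in KO and 66.9 in WT cells at 0 h (7 of 7 tested higher, 3 past the rule). At 3 h they summed to 100.7 in KO and 68.9 in WT cells (5 of 6 higher, none past the rule). Mast cell, basophil and eosinophil markers summed to 26.2 FPKM in KO and 48.7 in WT cells at 3 h, and to 56.3 in KO and 52.7 in WT cells at 0 h. Of 5 tested at 3 h, 1 passed as higher in KO (Gata2, 1.28) and 2 as lower (Epx, -1.23, and Prg2, -1.08, of eosinophils). Of 6 tested at 0 h, 5 were higher in KO and 1 lower, none past the rule. Epx and Prg2 were among the higher ones there (0.55 and 0.45). Dendritic markers, mostly Itgax, summed to 543 FPKM in KO and 493 in WT cells at 3 h. Of 5 tested there, 3 were higher in KO and 2 lower, with a median of 0.12. Clec9a passed as lower in KO (-1.75), and none passed as higher. At 0 h the dendritic markers summed to 567 in KO and 584 in WT cells, with 4 of 5 lower in KO, a median of -0.60 and Cd209a past the rule. The part of these marker differences in the chemokine differences was not tested.

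**Figure D4:**
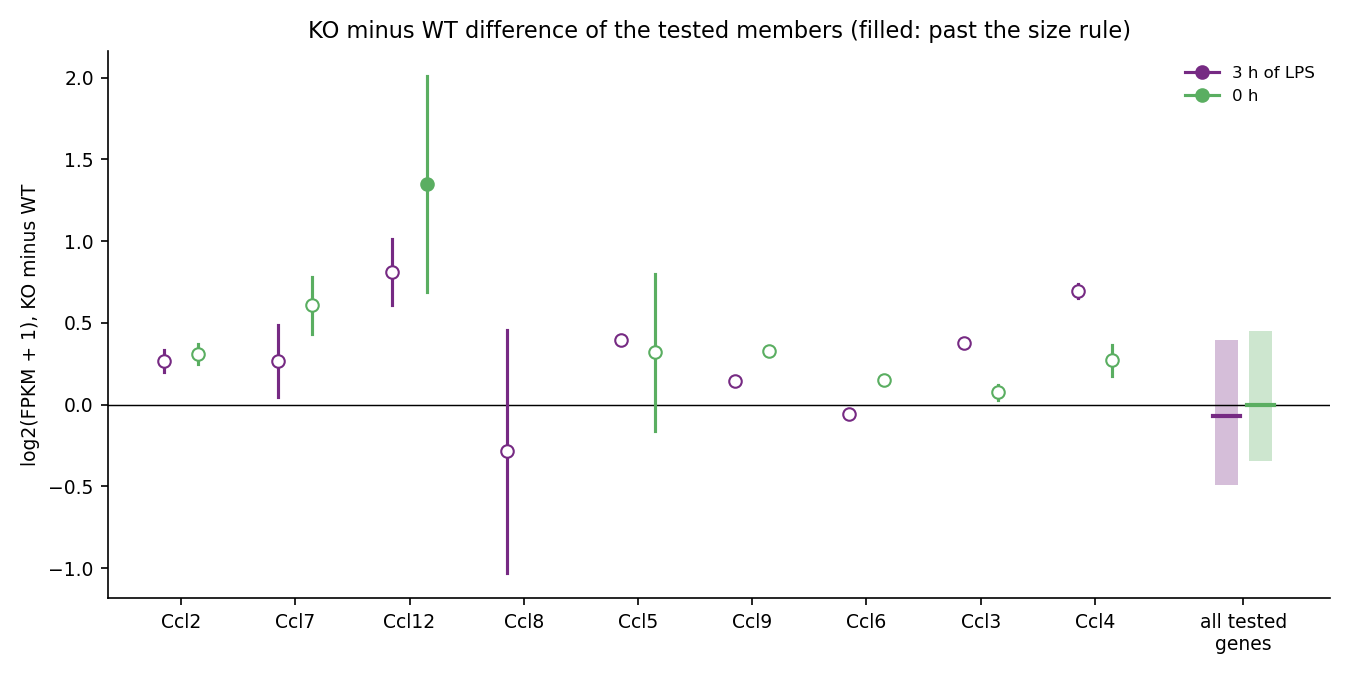
Difference of log2(FPKM + 1), KO minus WT, for the tested members at 3 h of LPS and at 0 h. Filled points passed the size rule, lines are 95% intervals, and the bars at the right span the 5th to 95th percentile of all tested genes. Ccl12 at 0 h is the only filled point, and most members lie between 0 and 0.7.

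The difference between the responses of KO and WT cells was computed from the same 4 libraries. None of the 9 tested members passed, where 2.45% of 11125 genes did (0.944% higher and 1.51% lower). Ccl4 and Ccl3 had larger differences between 3 h and 0 h in KO than in WT cells. They stood at 0.43 (interval 0.32 to 0.53) and 0.30 (0.25 to 0.35) on the log2(FPKM + 1) scale. The values of Ccl7, Ccl6 and Ccl9 were -0.34 (-0.62 to -0.06), -0.21 (-0.23 to -0.19) and -0.18 (-0.21 to -0.15). For Ccl12 the value was -0.54, with an interval of -1.23 to 0.16, and turned to 0.09 with a pseudocount of 5. For Ccl5 it was 0.07 (-0.41 to 0.55). Ccl2 stood at -0.04 (0.06 with rescaling) and Ccl8 at 0.30, both with intervals that include 0.

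Of 11 other CC chemokines listed, 4 reached the FPKM minimum at 3 h against 0 h. Ccl22, a ligand of CCR4, rose to 955 FPKM in KO cells at 3 h, against 149.0 at 0 h, and to 881 in WT cells, against 302 at 0 h. Ccl24, an eosinophil attractant like Ccl11, rose to 4.07 FPKM in KO cells, against 0.43 at 0 h, and to 2.41 in WT cells, against 0.25 at 0 h. Ccl17, the other CCR4 ligand, did not pass, with 2354 FPKM in KO and 2881 in WT cells at 3 h and 2553 in KO and 4348 in WT cells at 0 h. Ccl1, the next gene of the Ccl2 run, was listed at 0.41 FPKM in KO and at 0 in WT cells at 3 h.

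The receptors of these chemokines were described beside them. Ccr1, which binds Ccl3, Ccl5, Ccl6 and Ccl9, fell in both genotypes, to 38.5 FPKM in KO cells at 3 h against 144.1 at 0 h, and to 43.2 in WT cells against 127.5. Ccr2, which binds Ccl2, Ccl7 and Ccl12, fell in KO cells (38.4 FPKM at 3 h, 100.6 at 0 h) and did not pass in WT cells (49.4 and 97.6). Ccrl2, an atypical receptor known to bind chemerin, rose to 305 FPKM in KO cells against 6.47 at 0 h, and to 226 in WT cells against 5.17. Relative to the median of all genes, the difference of Ccr1 was -1.24 in KO and -0.996 in WT cells, and that of Ccr2 in KO cells was -0.73. Ccr3 and Ccr8, the receptors of Ccl11 and Ccl8, stayed under 1 FPKM in all 4 libraries.

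Genes side by side in a run could differ widely. Ccl2 and Ccl7 did not pass at 3 h against 0 h, while Ccl12 of the same run rose in both genotypes and Ccl8 in KO cells. In the other run the high differences of Ccl5, Ccl3 and Ccl4 flank Ccl9 and Ccl6. Genes that are not chemokines, inside the runs or within 100 kb of them, were described alongside. Heatr9, 3.68 kb from Ccl5, rose to 4.23 FPKM in KO and 3.50 in WT cells at 3 h, and was listed at 0 in KO and at 0.023 in WT cells at 0 h. Taf15, a more distant neighbour, had 31.6 FPKM in KO and 30.7 in WT cells at 3 h, against 28.4 in KO and 29.0 in WT cells at 0 h. Wfdc17, Wfdc18, Wfdc21 and Heatr6, beyond Ccl4, did not pass. Of the 10 neighbours, with Ccl1 among them, 8 were tested and 1 rose (Heatr9) and 1 fell (E230016K23Rik) in each genotype, where 7.86% of all genes rose and 28% fell in KO and 7.57% rose and 23.2% fell in WT cells. Relative to the median of all genes, the difference of E230016K23Rik was -0.93 in KO and -1.08 in WT cells.

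**Figure D5:**
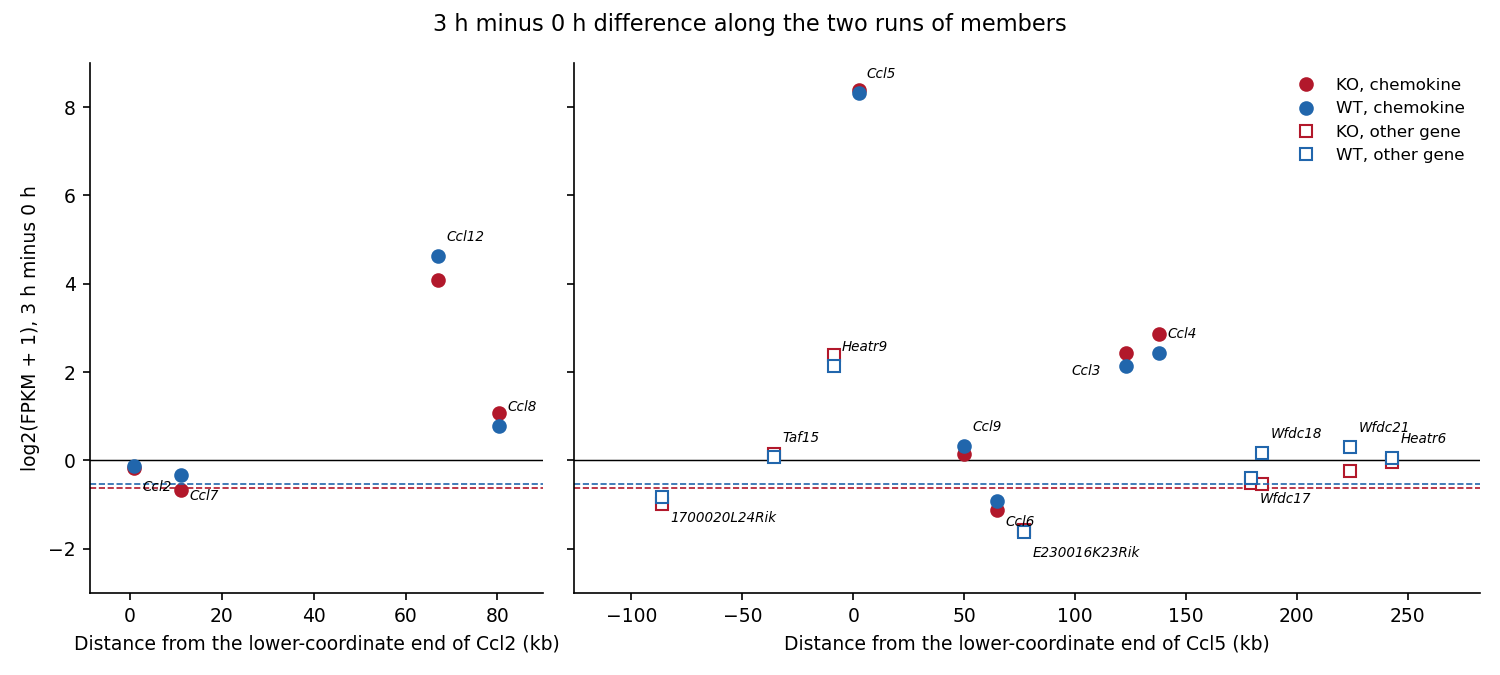
Difference of log2(FPKM + 1) between 3 h and 0 h against distance in kb from the lower-coordinate end of Ccl2 and of Ccl5, for tested chemokines (circles) and other genes (open squares) in KO and WT cells. Dashed lines are the medians of all tested genes, at -0.64 in KO and -0.54 in WT cells.

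Likeness over the 4 libraries was measured as the Euclidean distance between log2(FPKM + 1) values, each gene centred on its own mean. Among the 8 members that reached 5 FPKM in a library, all but Ccl8 and Ccl11, the closest pairs were Ccl2 and Ccl7 (0.40), Ccl2 and Ccl9 (0.40), and Ccl3 and Ccl4 (0.45). Ccl2 and Ccl12, of the same run and with a shared receptor, were 4.60 apart. Among the 8121 genes that met this minimum and were above 0 throughout, the gene nearest to Ccl5 outside the list was Il1b (0.21), which encodes interleukin-1 beta, with 3976 FPKM in KO and 2694 in WT cells at 3 h, against 10.5 in KO and 9.27 in WT cells at 0 h. Il27, a subunit of interleukin-27 (0.33), and Oasl1, a member of the oligoadenylate synthetase-like family (0.44), came next. Nearest to Ccl6 were Pafah2, C1qtnf12 and Cdc25a, at distances of 0.01 to 0.03 and with levels under 10 FPKM. Nearest to Ccl2, at 0.06 to 0.07, were Panx1, Alg14 and Pus10, also low in level. With 4 libraries such distances describe these values only.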

How the data were processed

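Tables of FPKM per RefSeq accession were used for 4 single-read RNA-seq libraries, made with a strand-specific kit per the labels' protocols. The authors deposited FPKM with lower and upper limits and a status. Per the submitters' processing notes, TopHat2, Bowtie, SAMtools and Cufflinks were used with mm9; no version is given in these sources. Of 33841 entries, 33437 were named from the RefSeq gene table, 187 from the GENCODE RefSeq table, 77 by position, and 140 kept their accession. FPKM of a symbol's entries was summed, with limits combined in quadrature. All members had the status OK.

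Differences of log2(FPKM + 1) were taken without rescaling, with a pseudocount of 1. Since FPKM can lie outside its deposited interval (1552 to 2076 entries per library), printed intervals were moved onto the FPKM at the same relative width, unless their lower limit was 0. Reads behind a value were estimated from the relative width. No counts are listed, so that depth is known only in relative terms. Members, lists, comparisons and the rule for named genes were chosen with earlier results of these data known. That rule names all members, the listed chemokines and receptors, the neighbouring genes and, for Ccl2, Ccl5 and Ccl6, the 3 genes most alike. Cxcl9, Cxcl10, S100a8, Itgax, Gata2, Epx, Prg2, Clec9a and Cd209a were named after their values were seen. Python 3.11.15 with pandas 2.3.3 was used. Alternatives were other pseudocounts, FPKM minimums, a rescaling, the highest entry per gene and a 3-fold rule. The interval midpoint was added after seeing the data. One of the listed receptors is not reported here.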

Additional observations from a re-analysis of the deposited data

Results flagged for a closer look

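Among the chemokines and receptors tested at both times, the KO minus WT difference of 4 genes had opposite signs at 3 h and at 0 h on the log2(FPKM + 1) scale. The difference between the times was not tested, since each group holds 1 library. Ccl6 stood at -0.06 at 3 h and 0.15 at 0 h, which is -0.21 apart, and its 3 h value turned to 0.03 with rescaling. Ccl22 stood at 0.11 at 3 h and -1.02 at 0 h, which is 1.13 apart. Ccr1 stood at -0.16 at 3 h and 0.17 at 0 h, a change of -0.34, and Ccr2 at -0.35 and 0.04, a change of -0.40.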

How the results depend on the processing

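Over 8 alternatives, 335 of 348 values of single chemokines kept their direction and their side of the size rule, 7 no longer passed and 6 changed sign. Some of these outcomes were fixed in advance. The highest entry only (44 values), no FPKM minimum (44) and an FPKM minimum of 5 (40) could not change the value of a member. A 3-fold rule could not change a direction. Values that changed sign with median-ratio rescaling were Ccl6 in KO against WT at 3 h (0.0280), Ccl2 at 3 h against 0 h in KO (0.46) and WT cells (0.40), Ccl7 in WT cells (0.20) and the difference between the responses of Ccl2 (0.0615). That of Ccl12 was 0.0876 with a pseudocount of 5. The members' median difference between the responses, -0.04, was 0.0457 with a pseudocount of 5, 0.0146 without an FPKM minimum and 0.0615 with rescaling. Their median in KO against WT at 3 h, 0.27, was 0.35 with rescaling. At 0 h, the 1 member past the rule in KO against WT, Ccl12, left 0 with a pseudocount of 5 and 0 with a 3-fold rule. Over all genes, 142 passed in KO against WT at 3 h, and 278 with a pseudocount of 0.1, 46 with a pseudocount of 5, 88 with an FPKM minimum of 5, 298 with the highest entry only and 47 with a 3-fold rule. At 0 h the count was 186, and in the same order 349, 63, 119, 327 and 47. At 3 h against 0 h it was 3926 in KO cells, and 1579 with a pseudocount of 5, 2507 with rescaling and 1400 with a 3-fold rule. In WT cells it was 3336, and 1385 with a pseudocount of 5 and 1230 with a 3-fold rule. The cause of these shifts was not tested. With an FPKM minimum of 5, Ccl8 has no value.

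No paired analysis was run, since each group holds 1 library and the labels give no replicate numbers. The spread between cultures is unknown, and depth limits Ccl8 and Ccl11 at both times and Ccl12 at 0 h.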
